A study of Homo sapiens with 6 samples.

Results

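The genes described here carry the names of families of histone-modifying enzymes, bromodomain readers, CHD nucleosome remodelers and nucleosome-binding HMGN proteins. They were chosen by name alone: each gene symbol paired with a probe set that starts with HMGN, HDAC, KDM, KMT, KAT, CHD, SETD or BRD followed by a digit, or with SMARC. The rule found 75 of 14884 named genes, of which 69 were protein coding and 6 were pseudogenes, antisense or divergent transcripts that share a family prefix. No symbol starting with SMARC, the prefix of the SWI/SNF subunits, was among the named genes, so those subunits were not analysed here. The coding members comprised 5 HMGN genes, 20 writers (KMT, KAT and SETD), 30 erasers (HDAC and KDM), 4 readers (BRD) and 10 remodelers (CHD). These classes follow the prefix, so the writers include SETD3 and SETD6, which are described below by nonhistone substrates.

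RNA came from HK2, an established epithelial cell line of the human proximal tubule. The shPGC-1alpha cultures carried a lentiviral pLKO.1 vector with an shRNA against PGC-1alpha, and the controls carried the same vector with an shRNA against GFP, a jellyfish protein that human cells lack. All cultures had been selected with puromycin and were harvested on day 5 after transduction, 24 hours after selection ended, and each group had 3 arrays labelled biological replicates 1 to 3. The labels name 1 shRNA construct for PGC-1alpha, so an effect of its target and an off-target effect of its sequence cannot be told apart, and the level of the target's own transcript was not analysed here.

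PGC-1alpha is a transcriptional coactivator that binds no DNA itself. It is recruited by nuclear receptors and other factors, and in turn brings histone acetyltransferases and remodeling complexes to promoters, among them those of mitochondrial genes. Writers place acetyl or methyl groups on histone tails, erasers remove them, bromodomain proteins bind acetylated lysine, and CHD proteins use ATP to move or rebuild nucleosomes. HMGN proteins bind the nucleosome core, loosen the compaction of chromatin and compete with linker histone.

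Values are log2 expression after RMA (robust multi-array average), and differences are shPGC-1alpha minus shGFP, so 1 unit is a doubling of signal. A difference was called when limma's moderated test gave a Benjamini-Hochberg adjusted p under 0.05 over all 14884 named genes, and SE is the moderated standard error of the difference. Array medians over all probe sets ran from 5.00 to 5.04; 3 arrays a group set the precision. Medians over the named genes lay between 6.12 and 6.14 in the shPGC-1alpha arrays and between 6.17 and 6.19 in the shGFP arrays, without overlap, so the genes tested sat slightly lower in shPGC-1alpha cells. Over the members, 79.5% of the variance lay on a first principal component that separated the groups. On the second, with 9.51%, shGFP replicate 1 stood apart at 1.03 from the other 5 arrays at -0.56 to 0.38, and it was the highest shGFP array for 45 of the 75 members. Members were not scaled to equal variance, so those with large differences weigh most in these components. The share of the first component over all genes is not given here. Of the markers that HK2 cells could carry, PAX8 was high (11.82 ± 0.05 in shPGC-1alpha cells and 11.44 ± 0.06 in shGFP cells, SD, n = 3 each), whereas the proximal tubule endocytic receptors LRP2 and CUBN averaged 4.0 and 3.90 in shPGC-1alpha cells and 3.94 and 3.95 in shGFP cells, under 4.43, the level of the 20th percentile of named genes. Of 18 listed tubule and epithelial markers 9 were measured, with PAX8 higher and KRT18 lower (-0.32). In bulk RNA, fewer cells of a type and less RNA per cell cannot be told apart.

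Of the 75 members, 6 were called higher and 20 lower in shPGC-1alpha cells, which is 34.7% called against 21.8% of all named genes. In the single directions, 8% of members were higher against 9.58% of all genes, and 26.7% were lower against 12.2%. Members were mostly well expressed, with 58 of 75 above the median level of the named genes. Among the 7442 named genes above that level, 34.6% were called, 15.9% higher and 18.7% lower, so the share of members called in either direction was near that of well-expressed genes. The median difference was -0.06 over the members and -0.02 over all genes. For 38 members (50.7%) every array of one group lay above every array of the other, 13 higher and 25 lower in shPGC-1alpha cells; over all genes this held for 38.7%, 17.2% higher and 21.5% lower.

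Most changes were small: 8 members differed by at least 0.5 and 2 by at least 1, HMGN5 downward and the transcribed pseudogene HMGN2P46 upward. The 49 members that did not pass lay between -0.28 and 0.24. A set of 9 called members held under every alternative tried: SETD7, KAT2B, HDAC9 and HMGN2P46 as higher and HMGN5, KAT14, KDM1A, KDM3B and KDM4D as lower. The count of lower members was sensitive to single arrays: it was 11 without shPGC-1alpha replicate 2, 12 without shPGC-1alpha replicate 3, and 12 without shGFP replicate 1 or 3, while the count over all genes also fell with any array left out. With each array centred on its median over the named genes, which moved the median difference of all genes to 0.04, 10 members were higher and 14 lower, so that 41.7% of called members were higher, compared with 23.1% in the values as deposited. The calls of HMGN3, KMT5B, KDM4A, BRD3, CHD3 and CHD4 were lost under centring (limma adjusted p 0.0582 to 0.104), and KAT5, KDM3A, KDM6B and HDAC7 passed as higher (0.0341 to 0.0392). Over all genes the share of higher calls was 56.5% after centring and 44.0% in the values as deposited.

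**Figure D1:**
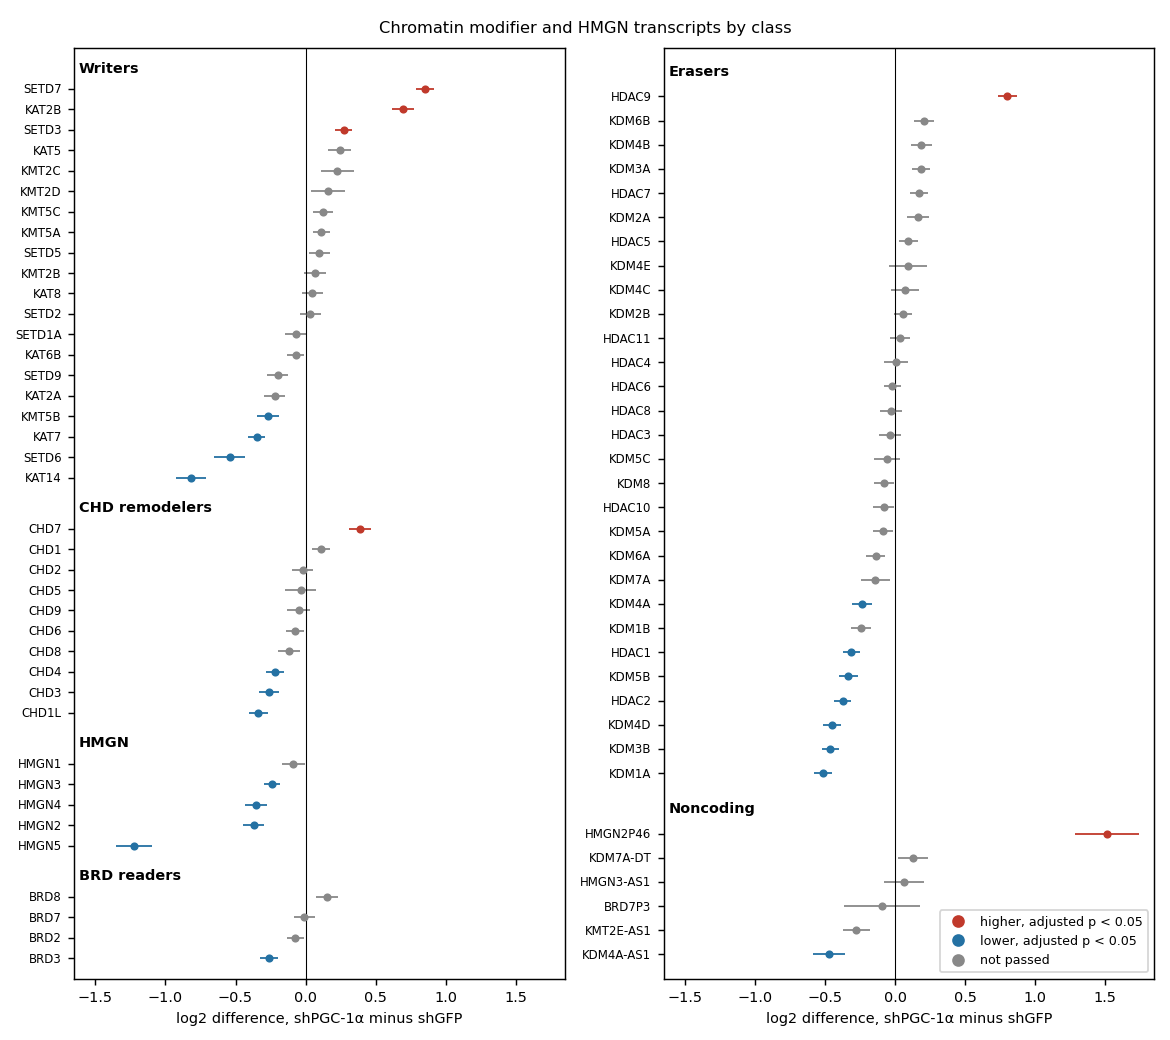
Log2 differences (horizontal axis, shPGC-1alpha minus shGFP) of 74 members by class, with bars of 1 moderated SE, KDM5D left out. Red and blue points passed an adjusted p of 0.05 as higher or lower. HMGN genes all lie left of 0, the writers spread from -0.82 to 0.85, and HDAC9 stands to the right of the other erasers.

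Of the 5 HMGN genes, HMGN2, HMGN3, HMGN4 and HMGN5 were called lower, HMGN1 did not pass, and 0 were called higher in limma (0 higher and 4 lower at an unadjusted p under 0.05). The median difference was -0.35, and 12.2% of all genes and 18.7% of those above the median level were called lower. HMGN5, an X-linked member with a long acidic tail that binds linker histone, showed the largest decrease of all members. Its values were 4.95, 4.71 and 4.53 in the shPGC-1alpha arrays, against 6.06, 6.03 and 5.78 in the shGFP arrays. Every shPGC-1alpha array was below every shGFP array, and the log2 difference was -1.22 (SE 0.13, limma adjusted p 0.000722), a 2.34-fold lower level. The promoters of HMGN5, HMGN4 and HMGN1 are printed because each holds 1 copy of the ETS family core CCGGAAG, in capitals, while the windows of HMGN2 and HMGN3 hold none; each runs 5′ to 3′ on the gene's strand from 250 bases before to 50 after the start (RefSeq, GRCh38.p14).
HMGN5, chrX:81201864-81202163, minus strand: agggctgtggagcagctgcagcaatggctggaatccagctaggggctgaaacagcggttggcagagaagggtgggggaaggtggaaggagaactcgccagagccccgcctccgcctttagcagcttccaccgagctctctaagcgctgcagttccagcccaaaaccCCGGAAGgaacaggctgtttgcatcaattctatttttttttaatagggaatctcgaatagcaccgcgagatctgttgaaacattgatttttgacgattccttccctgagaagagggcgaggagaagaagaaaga
HMGN4, chr6:26538116-26538415, plus strand: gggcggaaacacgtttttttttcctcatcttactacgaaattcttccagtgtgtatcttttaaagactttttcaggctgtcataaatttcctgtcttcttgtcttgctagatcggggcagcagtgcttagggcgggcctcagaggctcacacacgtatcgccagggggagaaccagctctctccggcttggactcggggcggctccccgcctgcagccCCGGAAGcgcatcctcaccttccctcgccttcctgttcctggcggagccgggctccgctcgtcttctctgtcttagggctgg
HMGN1, chr21:39349039-39349338, minus strand: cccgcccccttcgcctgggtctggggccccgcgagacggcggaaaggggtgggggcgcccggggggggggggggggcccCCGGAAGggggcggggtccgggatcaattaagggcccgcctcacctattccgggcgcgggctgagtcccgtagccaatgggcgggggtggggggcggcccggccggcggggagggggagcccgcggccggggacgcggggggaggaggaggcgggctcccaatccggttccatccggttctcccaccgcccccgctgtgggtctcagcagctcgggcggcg
The match begins 84 bases upstream of the start in HMGN5, 32 in HMGN4 and 171 in HMGN1. HMGN5 and HMGN4 fell and HMGN1 did not pass, so the letters were present on either side of the threshold.

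HMGN2, one of the ubiquitous members, had values of 7.02, 6.97 and 6.83 in the shPGC-1alpha arrays, against 7.38, 7.25 and 7.30 in the shGFP arrays. HMGN4, an intronless relative of HMGN2 on chromosome 6, had 7.44, 7.22 and 7.30 in the shPGC-1alpha arrays, against 7.71, 7.60 and 7.70 in the shGFP arrays. For both, each shPGC-1alpha array was below each shGFP array, with differences of -0.37 (SE 0.08, limma adjusted p 0.0128) for HMGN2 and -0.35 (SE 0.08, limma adjusted p 0.0186) for HMGN4. HMGN3, first described as a thyroid hormone receptor interactor, had 8.04, 8.06 and 8.04 in the shPGC-1alpha arrays, against 8.33, 8.27 and 8.26 in the shGFP arrays, which did not overlap and differed by -0.24 (SE 0.06, limma adjusted p 0.0282). HMGN1 overlapped between the groups, at 6.79, 6.77 and 6.65 in the shPGC-1alpha arrays, against 6.77, 6.95 and 6.75 in the shGFP arrays, and did not pass (-0.09, SE 0.08). HMGN2 has many processed copies in the genome and a close relative in HMGN4, so their probes can share transcripts and their 2 values may not be separate signals. The call of HMGN3 was lost when any 1 of the 6 arrays was left out (limma adjusted p 0.0681 to 0.0773, differences of -0.25 to -0.22), and that of HMGN4 without shPGC-1alpha replicate 2 or 3 or shGFP replicate 1 or 3 (0.0586 to 0.0649). The family count therefore ran from 2 to 3 with 1 array left out.

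**Figure D2:**
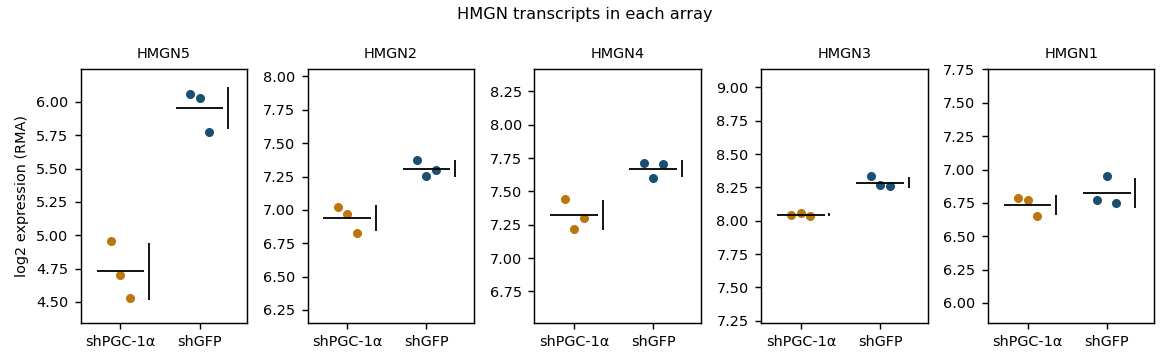
Log2 RMA values of the 5 HMGN genes in each array, shPGC-1alpha left and shGFP right; each vertical axis spans the same number of log2 units. Horizontal lines are group means, vertical lines ± 1 SD (n = 3). HMGN5 shows the widest gap, at 4.73 ± 0.21 in shPGC-1alpha cells and 5.95 ± 0.16 in shGFP cells, and HMGN1 overlaps.

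Of the 20 writers, 3 were called higher and 4 lower (15% and 20%), near the 15.9% and 18.7% of genes above the median level, and their median difference was 0.06. SETD7, a lysine methyltransferase known for H3K4 monomethylation and for many nonhistone substrates, had values of 8.42, 8.35 and 8.43 in the shPGC-1alpha arrays, against 7.50, 7.62 and 7.51 in the shGFP arrays. KAT2B (PCAF), a histone acetyltransferase that serves as a coactivator of nuclear receptors, had 6.71, 6.69 and 6.55 in the shPGC-1alpha arrays, against 6.0, 5.99 and 5.86 in the shGFP arrays. All shPGC-1alpha arrays of both genes were above all shGFP arrays, and the rises were 0.85 (SE 0.07, limma adjusted p 0.000236), or 1.81-fold, for SETD7 and 0.70 (SE 0.08, limma adjusted p 0.000889), or 1.62-fold, for KAT2B. KAT2A (GCN5), the closest relative of KAT2B and known as an acetyltransferase that acts on PGC-1alpha itself, had 8.28, 8.09 and 8.2 in the shPGC-1alpha arrays, against 8.47, 8.33 and 8.44 in the shGFP arrays. Its arrays lay lower without overlap but the difference of -0.22 (SE 0.08, limma adjusted p 0.0852) did not pass. SETD3, which methylates a histidine of actin, rose by 0.27 (SE 0.06, limma adjusted p 0.0167), with values of 9.48, 9.44 and 9.49 in the shPGC-1alpha arrays, against 9.17, 9.23 and 9.20 in the shGFP arrays.

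KAT14, a subunit of the ATAC acetyltransferase complex that contains KAT2A or KAT2B, had values of 5.12, 5.36 and 5.21 in the shPGC-1alpha arrays, against 6.07, 6.21 and 5.88 in the shGFP arrays. The groups lay far apart relative to their spread, and KAT14 fell by 0.82 (SE 0.11, limma adjusted p 0.00176), to a 1.76-fold lower level. SETD6, which methylates the NF-kB subunit RELA, had 6.05, 6.16 and 5.85 in the shPGC-1alpha arrays, against 6.40, 6.58 and 6.71 in the shGFP arrays and fell by 0.54 (SE 0.11, limma adjusted p 0.0126). KAT7 (HBO1), the acetyltransferase of H3K14 and of replication origins, had 8.24, 8.21 and 8.2 in the shPGC-1alpha arrays, against 8.61, 8.59 and 8.50 in the shGFP arrays. Again no array overlapped, and KAT7 fell by 0.35 (SE 0.06, limma adjusted p 0.0072). KMT5B, which adds further methyl groups to H4K20, fell by 0.27 (SE 0.08, limma adjusted p 0.048). The other 13 writers did not pass and lay between -0.22 and 0.24. Among them were the H3K4 methyltransferases KMT2B, KMT2C, KMT2D and SETD1A at 0.07, 0.23, 0.16 and -0.07, the H3K36 methyltransferase SETD2 at 0.03, and the TIP60 acetyltransferase KAT5 at 0.24. The call of KMT5B was lost when any array but shPGC-1alpha replicate 1 was left out (limma adjusted p 0.0841 to 0.117), and that of SETD3 without shPGC-1alpha replicate 1 or shGFP replicate 3 (0.0512 to 0.0565). KMT2C, whose shGFP replicate 1 value was far above the other controls (9.69, 9.66 and 9.72 in the shPGC-1alpha arrays, against 9.73, 9.33 and 9.32 in the shGFP arrays), passed as higher without that array (0.36, limma adjusted p 0.0164), and KAT5 passed without shPGC-1alpha replicate 3 (0.32, limma adjusted p 0.0313).

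Of the 30 erasers, HDAC9 was called higher and 7 were called lower (3.33% and 23.3%), with a median of -0.05. Over all genes the shares were 9.58% and 12.2%, and among genes above the median level 15.9% and 18.7%. HDAC9, a class IIa deacetylase that represses MEF2 targets, had values of 5.69, 5.66 and 5.55 in the shPGC-1alpha arrays, against 4.85, 4.85 and 4.79 in the shGFP arrays. Its lowest shPGC-1alpha array was well above its highest shGFP array, and it rose by 0.80 (SE 0.07, limma adjusted p 0.000304), or 1.74-fold. The other class IIa genes measured, HDAC4, HDAC5 and HDAC7, did not pass, at 0.01, 0.09 and 0.17.

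The class I deacetylases HDAC1 and HDAC2, which share several corepressor complexes, were both lower. HDAC1 had 9.65, 9.67 and 9.60 in the shPGC-1alpha arrays, against 9.96, 9.98 and 9.91 in the shGFP arrays, and HDAC2 had 6.77, 6.85 and 6.75 in the shPGC-1alpha arrays, against 7.20, 7.15 and 7.14 in the shGFP arrays. Neither overlapped between groups, and they fell by 0.31 (SE 0.06, limma adjusted p 0.0105) and 0.38 (SE 0.06, limma adjusted p 0.00527). A dimmer probe set annotated to HDAC2 lay between 2.59 and 3.04 on all arrays with a difference of 0.01 (SE 0.12), and the mean of both probe sets of HDAC2, at -0.18, did not pass (limma adjusted p 0.151). HDAC3, the deacetylase of the NCoR complex, and HDAC8 did not pass, at -0.04 and -0.03. Neither did HDAC6, HDAC10 and HDAC11, at -0.02, -0.08 and 0.04.

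Among demethylases, KDM1A (LSD1), which removes methyl groups from H3K4 and partners HDAC1 and HDAC2 in the CoREST complex, had values of 9.86, 9.96 and 9.85 in the shPGC-1alpha arrays, against 10.39, 10.46 and 10.37 in the shGFP arrays. KDM3B, an H3K9 demethylase, had 8.44, 8.45 and 8.40 in the shPGC-1alpha arrays, against 8.85, 8.92 and 8.91 in the shGFP arrays. In both genes the groups were separated by far more than the spread within them, with decreases of 0.52 (SE 0.07, limma adjusted p 0.00172) for KDM1A and 0.46 (SE 0.06, limma adjusted p 0.00184) for KDM3B. KDM4D, a demethylase of H3K9, had 5.75, 5.76 and 5.78 in the shPGC-1alpha arrays, against 6.17, 6.18 and 6.31 in the shGFP arrays and fell by 0.45 (SE 0.07, limma adjusted p 0.00329). The H3K4 demethylase KDM5B fell by 0.33 (SE 0.07, limma adjusted p 0.0128) and KDM4A by 0.24 (SE 0.07, limma adjusted p 0.0478). The call of KDM4A was lost when any array but shPGC-1alpha replicate 1 was left out (limma adjusted p 0.0866 to 0.146).

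The other demethylases did not pass. The JmjC enzymes KDM3A, KDM4B and KDM6B, which is the H3K27 demethylase JMJD3, lay higher without overlap between the groups, at 0.18, 0.19 and 0.21 (limma adjusted p 0.0914, 0.134 and 0.0767). KDM1B, the relative of KDM1A, lay lower without overlap, at -0.25 (limma adjusted p 0.0505), and passed without shPGC-1alpha replicate 1 (-0.30, limma adjusted p 0.0349). KDM2A and KDM2B were at 0.16 and 0.06, KDM5A and KDM5C at -0.09 and -0.06, and the H3K27 demethylase KDM6A at -0.14. KDM4C, KDM4E, KDM7A and KDM8 lay between -0.14 and 0.09. KDM5D, a Y-linked gene, was counted among the genes that did not pass and its levels are not given.

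**Figure D3:**
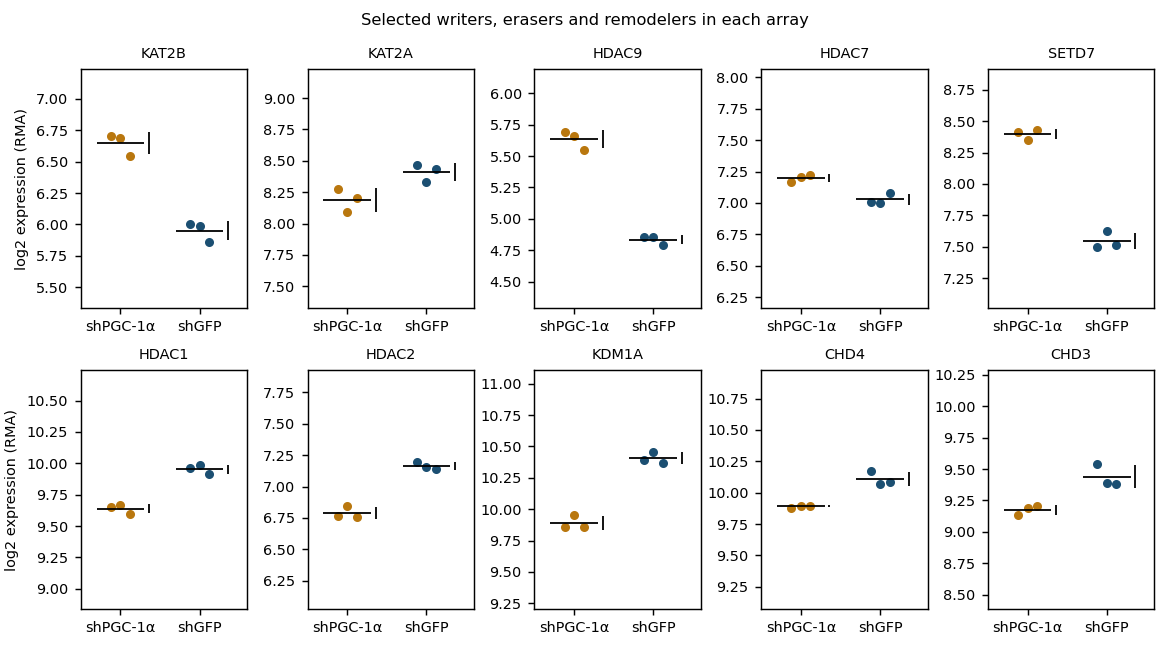
Log2 RMA values of 10 writers, erasers and remodelers in each array, shPGC-1alpha left and shGFP right, with means (horizontal lines) and ± 1 SD (vertical lines, n = 3); each vertical axis spans the same number of log2 units. KAT2B, HDAC9 and SETD7 lie higher in shPGC-1alpha arrays, and HDAC1, HDAC2, KDM1A, CHD4 and CHD3 lower.

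Of the 10 CHD remodelers, 1 was called higher and 3 lower, against 9.58% and 12.2% of all genes and 15.9% and 18.7% of those above the median level. CHD7, the gene mutated in CHARGE syndrome, had values of 8.15, 8.22 and 8.14 in the shPGC-1alpha arrays, against 7.92, 7.73 and 7.68 in the shGFP arrays and rose by 0.39 (SE 0.08, limma adjusted p 0.0133). CHD1L (ALC1), a remodeler activated by poly(ADP-ribose) at DNA damage, had 7.90, 7.75 and 7.81 in the shPGC-1alpha arrays, against 8.22, 8.16 and 8.09 in the shGFP arrays and fell by 0.34 (SE 0.07, limma adjusted p 0.0144). In both genes the groups were separate. CHD3 and CHD4, the alternative ATPases of the NuRD complex, were both lower. CHD3 had 9.13, 9.19 and 9.21 in the shPGC-1alpha arrays, against 9.54, 9.39 and 9.38 in the shGFP arrays, and CHD4 had 9.88, 9.89 and 9.90 in the shPGC-1alpha arrays, against 10.17, 10.07 and 10.09 in the shGFP arrays. The arrays did not overlap and the decreases were 0.26 (SE 0.07, limma adjusted p 0.0362) for CHD3 and 0.22 (SE 0.06, limma adjusted p 0.0429) for CHD4. The other 6 CHD genes lay between -0.12 and 0.11 and did not pass, CHD1 and CHD2 at 0.11 and -0.02 and CHD8 at -0.12 among them. The calls of CHD3 and CHD4 were lost when any 1 of the 6 arrays was left out (limma adjusted p 0.0655 to 0.102 and 0.0861 to 0.108), that of CHD7 without shGFP replicate 2 (0.37, limma adjusted p 0.052), and that of CHD1L without replicate 2 of either group (0.0505 to 0.052).

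Of the 4 bromodomain readers measured, BRD3, a member of the BET family that binds acetylated histones and transcription factors, fell by 0.26 (SE 0.06, limma adjusted p 0.0258), and 0 were called higher in limma (0 higher and 1 lower at an unadjusted p under 0.05). BRD3 had 7.30, 7.28 and 7.32 in the shPGC-1alpha arrays, against 7.61, 7.49 and 7.58 in the shGFP arrays, which did not overlap, and the call was lost when any array but shGFP replicate 2 was left out (limma adjusted p 0.0555 to 0.0854). The BET relative BRD2 had 8.19, 8.17 and 8.17 in the shPGC-1alpha arrays, against 8.29, 8.24 and 8.23 in the shGFP arrays, also without overlap, and did not pass at -0.07 (SE 0.06). BRD7, a subunit of the PBAF form of SWI/SNF, was at -0.01 and BRD8, of the NuA4 acetyltransferase complex, at 0.15. Over all genes 12.2% were called lower and 38.7% did not overlap, and 18.7% of those above the median level were called lower.

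Among the 6 noncoding members, HMGN2P46 on chromosome 15 showed the largest difference of all 75 members. Its values were 7.11, 6.71 and 7.18 in the shPGC-1alpha arrays, against 5.99, 5.35 and 5.14 in the shGFP arrays. All shPGC-1alpha arrays were above all shGFP arrays although shGFP replicate 1 lay well above the other controls, and the rise was 1.51 (SE 0.23, limma adjusted p 0.00338), or 2.85-fold. The probe set of this pseudogene of HMGN2 rose while that of HMGN2 fell, and whether the 2 measure separate transcripts was not tested. KDM4A-AS1, antisense to KDM4A, had 5.48, 5.16 and 5.15 in the shPGC-1alpha arrays, against 5.74, 5.59 and 5.87 in the shGFP arrays and fell by 0.47 (SE 0.12, limma adjusted p 0.0255), the direction of KDM4A itself. How far the probes of KDM4A and KDM4A-AS1 measure separate transcripts was not tested, and the antisense call was lost without shPGC-1alpha replicate 2 or 3 or shGFP replicate 1 or 3 (limma adjusted p 0.0701 to 0.0857). HMGN3-AS1, KDM7A-DT, KMT2E-AS1 and BRD7P3 did not pass, at 0.06, 0.13, -0.28 and -0.10.

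Relatives within a family were set against each other by subtracting their log2 values within each array, which cancels any scaling of an array, and comparing the result between groups. Of the 29 pairs listed, 18 had both genes measured. With 3 arrays against 3, 0.1 is the smallest p of a two-sided exact permutation test. Of the pairs, 11 reached it and 0 passed after adjustment over the 18 pairs (smallest adjusted p 0.164 in the exact permutation test). With that smallest p no pair could have passed at 0.05, so the lack of passing pairs is uninformative. How often other pairs of genes reach the smallest p was not tested. For pairs, SE is taken from the spread of the 3 arrays in each group without moderation. It is therefore not comparable with the moderated SE of single genes. The widest gap lay between HMGN3 and HMGN5, at 0.99 (SE 0.14), followed by KAT2A and KAT2B, at -0.92 (SE 0.10), KDM3A and KDM3B, at 0.65 (SE 0.04), HDAC7 and HDAC9, at -0.63 (SE 0.07), and CHD7 and CHD8, at 0.51 (SE 0.06). In none of these pairs did the within-array differences of the groups overlap. Of the genes not yet given by array, KDM3A had 8.99, 8.94 and 8.85 in the shPGC-1alpha arrays, against 8.74, 8.75 and 8.74 in the shGFP arrays, HDAC7 had 7.17, 7.21 and 7.23 in the shPGC-1alpha arrays, against 7.01, 7.0 and 7.08 in the shGFP arrays, and CHD8 had 8.80, 8.86 and 8.89 in the shPGC-1alpha arrays, against 9.08, 8.87 and 8.96 in the shGFP arrays. KDM3A and HDAC7 lay higher without overlap and CHD8 overlapped, and none of them passed on its own. The gap between KDM6A and KDM6B was -0.35 (SE 0.04), with 7.70, 7.62 and 7.62 in the shPGC-1alpha arrays, against 7.87, 7.80 and 7.70 in the shGFP arrays for KDM6A and 7.83, 7.73 and 7.85 in the shPGC-1alpha arrays, against 7.67, 7.59 and 7.54 in the shGFP arrays for KDM6B. Near-equal differences were found for CHD3 and CHD4 (-0.05, SE 0.03), HMGN2 and HMGN4 (-0.02, SE 0.07) and HDAC1 and HDAC2 (0.06, SE 0.03).

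Other chromatin genes, whose symbols lie outside the family prefixes, were counted in the same fit, to be read against 9.58% of all genes called higher and 12.2% lower. Among genes above the median level, where most of the listed genes lay, the shares were 15.9% and 18.7%. The list of deacetylase corepressor complexes had the lowest median, -0.22, with 0 of 13 measured genes called higher in limma (1 at an unadjusted p under 0.05) and 4 lower. TBL1XR1, an exchange subunit of the NCoR complex that holds HDAC3, had 9.33, 9.41 and 9.14 in the shPGC-1alpha arrays, against 10.41, 10.24 and 10.23 in the shGFP arrays. Its relative TBL1X had 8.13, 8.19 and 8.07 in the shPGC-1alpha arrays, against 8.97, 8.79 and 8.69 in the shGFP arrays. TBL1XR1 and TBL1X fell by 1.00 (SE 0.09, limma adjusted p 0.000506) and 0.69 (SE 0.09, limma adjusted p 0.00163), without overlap, whereas HDAC3 itself was at -0.04. The scaffold SIN3A, which carries HDAC1 and HDAC2, fell by 0.24 (SE 0.06, limma adjusted p 0.025). The list held 2 lower genes when any 1 shPGC-1alpha array or shGFP replicate 2 was left out.

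Some genes were also set side by side by complex after their values were seen, which gives no evidence about a complex. Of NuRD subunits, HDAC1, HDAC2, CHD3, CHD4 and RBBP4 were called lower, the calls of CHD3 and CHD4 being lost when any 1 array was left out and under centring, and RBBP4 fell by 0.39 (SE 0.07, limma adjusted p 0.00533). The ATPase CHD5 did not pass, at -0.04 (SE 0.11), nor did the subunits MTA1, RBBP7, GATAD2A, GATAD2B and MBD2, at -0.24, -0.14, -0.02, 0.05 and 0.19. Of the CoREST complex, KDM1A, HDAC1 and HDAC2 fell, while the scaffolds RCOR1, RCOR2 and RCOR3 did not pass, at 0.03, -0.22 and 0.07.

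Of 21 Polycomb genes, 0 were called higher in limma (2 at an unadjusted p under 0.05) and 3 lower, with a median of 0.01. The H3K27 methyltransferase EZH2 fell by 0.65 (SE 0.08, limma adjusted p 0.00126) and CBX6 by 0.34. Of 23 histone methyltransferases without a family symbol, 0 were called higher in limma (3 at an unadjusted p under 0.05) and 3 lower, with a median of 0.01; the H3K9 methyltransferase EHMT2 fell by 0.54 and the arginine methyltransferase PRMT5 by 0.50. With any 1 array left out 2 genes of that list were lower, and 1 was higher without shPGC-1alpha replicate 1 or shGFP replicate 2. With arrays centred on their medians 2 were higher and 2 lower. Of 7 further acetyltransferases 1 was called lower, CLOCK at -0.44, and 0 higher in limma (1 at an unadjusted p under 0.05). EP300 and CREBBP, the acetyltransferases best known to bind PGC-1alpha, did not pass, at -0.17 and 0.08. Of 7 sirtuins SIRT2 was higher, at 0.39, and SIRT1 and SIRT5 lower, at -0.68 and -0.25, the call of SIRT5 being lost when any 1 array was left out.

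SWI/SNF subunits without a SMARC symbol had 1 gene higher and 3 lower of 12, with a median of -0.03. PBRM1, the bromodomain subunit of the PBAF form, had 9.59, 9.53 and 9.60 in the shPGC-1alpha arrays, against 9.13, 8.95 and 8.90 in the shGFP arrays and rose by 0.58 (SE 0.08, limma adjusted p 0.00233). PHF10, a further PBAF subunit, had 7.90, 7.85 and 7.71 in the shPGC-1alpha arrays, against 8.51, 8.37 and 8.44 in the shGFP arrays and fell by 0.62 (SE 0.08, limma adjusted p 0.00157). In neither gene did the groups overlap. BICRAL and BCL7C fell by 0.46 and 0.43, and ARID1A and ARID1B were at -0.04 and -0.13 and did not pass. Of 15 other remodelers and histone chaperones 1 rose and 2 fell, with a median of -0.00, and the H3-H4 chaperone ASF1B, at 8.30, 8.25 and 8.19 in the shPGC-1alpha arrays, against 9.22, 9.22 and 9.21 in the shGFP arrays, fell by 0.97 (SE 0.06, limma adjusted p 0.000129). With any 1 array left out 1 gene of that list was lower, and none was higher when a shPGC-1alpha array or shGFP replicate 2 or 3 was left out, so that the call of INO80C (0.27, limma adjusted p 0.027) was lost. With arrays centred on their medians 3 were higher and 1 lower.

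Of 8 demethylases without a KDM symbol 1 was higher, JMJD6 at 0.44, and 2 lower, JMJD1C at -0.27 and PHF2 at -0.27, with a median of -0.04; 0 to 1 were lower with any 1 array left out. Of 10 DNA methylation genes 1 was higher, MBD1 at 0.25, and 2 lower, ZBTB33 at -0.46 and UHRF1 at -0.41, with a median of -0.09. The call of MBD1 was lost when any array but shGFP replicate 1 was left out, and 1 gene was lower when any array but shPGC-1alpha replicate 3 was left out. Of 9 bromodomain readers without a BRD symbol 2 were higher, SP140 at 0.66 and BRWD3 at 0.25, and 1 lower, TRIM28 at -0.43, with the highest median of these lists, 0.19. With arrays centred on their medians 4 of those readers were higher. Without shPGC-1alpha replicate 1 or 2 or shGFP replicate 2 or 3, 1 of those readers was higher. Of 7 other HMG genes HMGB3 was lower, at -0.47, and HMGA2, at 8.18, 8.13 and 8.25 in the shPGC-1alpha arrays, against 8.15, 7.32 and 7.23 in the shGFP arrays, did not pass (0.62, SE 0.23), with shGFP replicate 1 at the level of the shPGC-1alpha arrays. Without that array 1 gene of the list was higher, 2 were lower without shPGC-1alpha replicate 1, and none was lower without shGFP replicate 2 or 3.

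**Figure D4:**
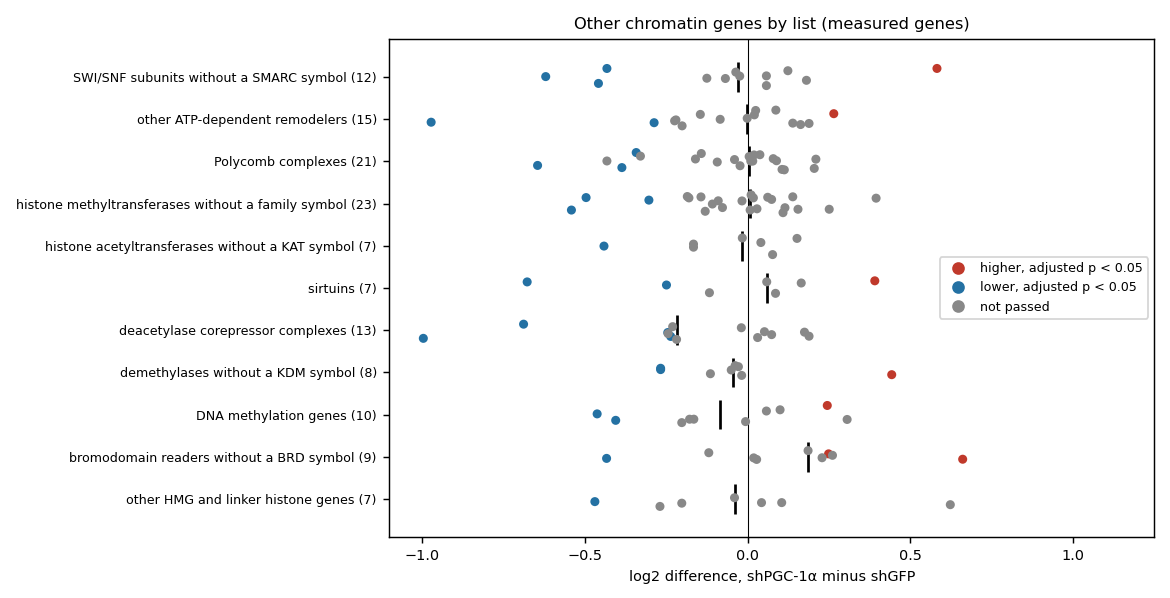
Log2 differences (shPGC-1alpha minus shGFP) of chromatin genes outside the family prefixes, 1 point a gene and 1 row a list, with the number measured in brackets, black bars at the list medians and colours as called. The deacetylase corepressor list has the lowest median, -0.22, and TBL1XR1 its lowest point.

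Genes listed as markers of other cell types were few among the named genes, and some of them differed between the groups. All RNA came from the HK2 line, so their levels are not read here as numbers of such cells. The fibroblast matrix genes LUM and DCN, 2 of 7 listed, were both higher, at 0.76 and 0.83, and their mean level lay between 6.92 and 7.04 in shPGC-1alpha arrays and between 6.13 and 6.22 in shGFP arrays. Of 3 endothelial markers 0 passed, PECAM1, KDR and VWF at -0.12, -0.10 and -0.04 (0 at an unadjusted p under 0.05 in limma). Of 3 podocyte markers SYNPO was lower, at -0.93, while PODXL lay the other way at 0.24 and WT1 was at -0.13, and neither passed. Of 2 leukocyte markers CD68 was higher, at 0.34, and CD14 did not pass, at 0.24. The mean level over the leukocyte markers lay between 7.97 and 8.15 in shPGC-1alpha arrays and between 7.65 and 7.90 in shGFP arrays, and that over the podocyte markers between 6.05 and 6.19 in shPGC-1alpha arrays and between 6.33 and 6.46 in shGFP arrays. The endothelial mean overlapped, at 4.06 to 4.21 in shPGC-1alpha arrays and 4.19 to 4.33 in shGFP arrays. The part of these genes in the differences of the chromatin genes was not tested.

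The letters of 4 motifs were searched on both strands of the promoter windows of 63 coding members, 15 of which have several starts and count as holding a motif if any window does. The ETS family core CCGGAAG was found in 8 of 19 lower members with a window (42.1%), 8 of 40 that did not pass (20%) and 0 of 4 higher members, against 17.9% of 9707 measured coding genes and 10.3% of all 35116 windows. The lower members that hold it are HMGN5, HMGN4, KAT14, KAT7, SETD6, KDM4D, CHD1L and CHD4. The palindrome of NRF1, a factor of mitochondrial and housekeeping genes, was found in 2 of 19 lower members, 0 of 4 higher members and 5 of 40 that did not pass, against 10.3% of coding genes and 5.78% of windows. The ERR letters AAGGTCA, bound by a nuclear receptor that partners PGC-1alpha, were found in 0 of 19 lower, 0 of 4 higher and 1 of 40 that did not pass, against 3.98% of coding genes and 3.92% of windows. The NF-kB consensus was found in 1 of the 4 higher members, HDAC9, and in 0 of 19 lower members and 0 of 40 that did not pass, against 2.71% of coding genes and 1.91% of windows. The ETS and NF-kB motifs share the letters TTCC, and a match describes the window without showing that a factor binds there.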

How the data were processed

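Biotin-labelled RNA from 6 HK2 cultures was hybridised to Affymetrix arrays. The authors deposited log2 values of 53617 probe sets, made with RMA in Affymetrix Expression Console, per the submitters' processing notes (versions not given). RMA aligns array distributions, which reduces any shift common to most transcripts. Nothing says that replicates were transduced separately, so p-values reflect only how these samples spread, which may be technical. Any pair of arrays shared 13 to 119 identical values.

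A gene symbol was annotated to 16098 probe sets, never more than 1 each, and 37519 had none; all 16098 matched RefSeq (GRCh38.p14). Of several probe sets a gene (779 genes, 2 of them members), that with the highest mean was kept. Groups were fitted with limma 3.58.1 in R 4.3.3 (lmFit, eBayes, no block). On simulated data for this comparison (14884 genes) it recovered 40.3% of changes of 0.5 log2 units, 91.0% of 1 and 98.5% of 2, and called 0 genes where none was changed. The simulation changed 67, 67 and 66 genes at these sizes, whereas 3243 genes were called in the data. The adjusted threshold depends on the share of changed genes, so these rates may not hold for this fit.

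Alternatives were each array left out, the replicate block, a filter on dim genes, 2 other probe set choices, adjustment over all probe sets, 2 scalings, a trended robust variance and a minimum fold. Every array's value is given for called members with the smallest p, up to 6 a class, and for genes of described pairs; other lists name up to 3 called genes. BRD2, KMT2C, HMGA2, BCL7C, the NuRD and CoREST groups and uncalled genes of other lists were named after their values were seen. Applying the alternatives to lists and pairs was chosen after seeing the data. Members, lists, pairs and motifs were chosen with earlier results of these data known.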

Additional observations from a re-analysis of the deposited data

How the results depend on the processing

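No member changed direction in a called result under any of the 15 alternatives, and of 26 called members 15 held with each single array left out and 9 under all alternatives. With 1 array left out, called members numbered 5 to 7 higher and 11 to 17 lower, and all genes 1011 to 1170 higher and 1301 to 1502 lower. Lower calls then numbered 2 to 3 for HMGN, 0 to 1 for remodelers, 0 to 1 for readers and 0 to 1 for noncoding members, with 0 to 1 remodelers higher, 2 to 4 writers higher and 3 to 4 lower, and 6 to 8 erasers lower. Fewer arrays lower the power of every such fit. Adjusted over all 53617 probe sets, 7 members were lower, with 767 genes higher and 970 lower, and lower calls were 1 HMGN gene, 2 writers, 4 erasers and 0 remodelers, readers and noncoding members, with 0 remodelers higher. With a minimum log2 difference of 0.2 (limma's treat), 5 members were lower, with 551 genes higher and 711 lower, and lower calls were 1 HMGN gene, 1 writer, 3 erasers and 0 remodelers, readers and noncoding members, with 0 remodelers higher. Centring arrays on their named-gene medians gave 10 members and 4 erasers higher, and 1 remodeler and 0 readers lower. Higher erasers were 2 with the filter on dim genes, 2 with quantiles over the named genes and 3 with the trended variance, which also gave 2 lower noncoding members. The setting over all probe sets was a new fit, so both the number of tests and the moderated variances differed from the main fit. The cause of these changes in counts was not tested. The labels do not say whether same-numbered arrays share a batch. Same-numbered arrays had residual correlations of 0.12, 0.09 and 0.02, and those of different numbers ran from -0.12 to 0.06. Of the 6 arrays, 5 correlated best with their own number, and whether these arrays are paired was not tested. With the replicate block, 6 members were higher and 14 lower, with 1 remodeler and 0 readers lower. RMA values give no signal over background, so which dim members are near it is unknown, and 3 lay below the 20th percentile.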
